A study of Mus musculus with 13 samples.

Results

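Cytokine genes linked to Th17 cells were examined in mouse Th17 cultures of 2 Chaf1b genotypes. The 5 genes Il17a, Il17f, Il21, Il22 and Il10 were chosen by symbol from 56941 gene rows of an RNA-seq count table, and all 5 were found. All 5 passed the filter on low counts and were among the 14681 genes tested. Naive CD4+ T cells from mouse spleen were activated and kept under Th17-polarizing conditions for 72 hours. One group of 3 libraries is labelled Chaf1bWT (WT). The other group of 3 is labelled Chaf1bfl/fl;Il17fCre+ (KO), that is, Chaf1b alleles flanked by recombination sites with a Cre recombinase under Il17f. The labels do not say whether WT cells carry the Cre, and they give no age, strain or number of animals. In the KO design, recombination is tied to cells that have switched on Il17f, which is itself 1 of the genes described here. Another 7 samples, which profile chromatin, were left out and are not analysed here.

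Th17 cells are helper T cells that act on epithelial and stromal cells through secreted cytokines. IL-17A and IL-17F are related proteins that form homodimers and heterodimers, bind the receptor chains IL-17RA and IL-17RC, and induce chemokines that recruit neutrophils. Their genes lie next to each other and are switched on by factors that include STAT3, BATF and IRF4. IL-21 acts back on T cells through the common gamma chain and sustains the Th17 programme, IL-22 acts on epithelia, and IL-10 restrains inflammation.

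The stretches directly upstream of Il17a, Il17f and Il21 are shown, as Il17f and Il21 had the expression profiles nearest to Il17a (described below). Each is the 250 bases before the RefSeq transcription start in GRCm38.p6, read 5′ to 3′ on the strand of the gene. Il17a is chr1:20730655-20730904 on the plus strand, Il17f is chr1:20784271-20784520 on the minus strand, and Il21 is chr3:37232637-37232886 on the minus strand. Capitals mark every match, on either strand, to the searched motifs AGGTCA (a core of nuclear receptor sites), TGANTCA (known from AP-1), TTCNNNGAA (known from STAT factors), TGTGGT (the RUNX core) and TATAAA (bound by the TATA-binding protein), where N is any base. The sixth motif, the IRF element, was searched as GAAA followed by any 2 bases and a second GAAA.
Il17a: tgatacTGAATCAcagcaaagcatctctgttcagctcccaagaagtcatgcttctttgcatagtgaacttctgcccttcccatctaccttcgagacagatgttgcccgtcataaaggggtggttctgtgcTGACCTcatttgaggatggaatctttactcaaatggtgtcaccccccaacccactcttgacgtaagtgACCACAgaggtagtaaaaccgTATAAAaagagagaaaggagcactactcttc
Il17f: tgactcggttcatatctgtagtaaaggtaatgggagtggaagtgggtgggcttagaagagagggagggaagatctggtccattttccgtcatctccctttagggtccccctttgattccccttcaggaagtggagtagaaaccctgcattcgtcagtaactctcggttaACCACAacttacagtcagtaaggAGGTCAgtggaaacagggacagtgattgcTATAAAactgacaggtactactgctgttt
Il21: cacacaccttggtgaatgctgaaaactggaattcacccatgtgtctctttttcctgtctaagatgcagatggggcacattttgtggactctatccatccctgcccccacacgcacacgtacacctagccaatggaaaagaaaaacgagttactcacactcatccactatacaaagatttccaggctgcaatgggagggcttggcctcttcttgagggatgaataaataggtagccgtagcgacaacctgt

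Il17a and Il17f each held 1 match to AGGTCA, 1 to TGTGGT and 1 to TATAAA in these windows, and no 2 of the matches overlapped. Counted back from -1, the base before the start, the AGGTCA match of Il17a lay at -120 to -115 on the opposite strand and that of Il17f at -58 to -53 on the gene's strand. The TGTGGT matches, both on the opposite strand, lay at -52 to -47 and -81 to -76. The TATAAA matches lay at nearly the same place, -31 to -26 in Il17a and -29 to -24 in Il17f. Il17a also held 1 match to TGANTCA at -244 to -238. The window of Il21 held none of the 6 motifs, which says only that these letters are not in these 250 bases. Among 32851 RefSeq windows of this length, 14.02% held AGGTCA, 14.05% TGTGGT, 12.4% TATAAA, 6.75% TGANTCA, 7.02% TTCNNNGAA and 2.98% the IRF element. The matches are a description of the letters and do not show that a factor binds there.

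The libraries held 35708879 to 45232055 counts each. Levels are given as CPM, the count scaled to a common library size with TMM factors. The Chaf1b level averaged 12.0 ± 0.989 CPM over the WT libraries and 14.9 ± 1.38 over those labelled KO (SD, n = 3), so the targeted gene was not lower. Chaf1a, its partner subunit in chromatin assembly factor 1, was higher (log2 fold change 0.32, adjusted p = 0.0107). The counts sum all exons, and the deleted part is not given in the sources used here, so the genotype rests on the labels and the libraries are called those labelled KO and WT. The defining CD4 T cell genes Cd4, Cd3d, Cd3e, Cd3g, Trac, Trbc1 and Trbc2 were all counted, at a summed level of 1236 to 1401 CPM in WT and 1218 to 1259 CPM in KO. WT replicate 1 stood apart from the other WT libraries. Changes of the 5 genes and counts of called genes in lists are therefore also given without it, while the likeness profiles and marker sums use all 6 libraries. Without it 19.7% of 15039 tested genes passed the threshold of 0.05, 9.12% as lower and 10.6% as higher.

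Il17a and Il17f were several-fold lower in the libraries labelled KO, and every KO value lay below every WT value. Il17a (ENSMUSG00000025929.5) was counted 4256, 2009 and 1964 times in WT replicates 1, 2 and 3 and 302, 322 and 364 times in the KO replicates, which is 104, 52.3 and 43.1 CPM against 8.60, 8.44 and 9.88 CPM. The WT libraries were widely spread, while the KO libraries lay close together, and the lowest WT value was 4.36 times the highest KO value. The log2 fold change of Il17a, KO over WT, was -2.89 ± 0.39 (SE), a 7.39-fold drop, and its 95% interval ran from -3.88 to -1.89. The adjusted p was 0.0181 in the quasi-likelihood test of edgeR, adjusted after Benjamini and Hochberg, which was used for all genes that follow. Il17f (ENSMUSG00000041872.10) was counted 2664, 1284 and 1173 times in WT and 187, 246 and 210 times in KO, or 64.9, 33.4 and 25.8 CPM against 5.32, 6.45 and 5.70 CPM. Its order in WT was that of Il17a, with replicate 1 highest and replicate 3 lowest. The log2 fold change of Il17f was -2.83 ± 0.39, a 7.09-fold drop (interval -3.78 to -1.87, adjusted p = 0.0135). These were the 2 of 5 cytokine genes past the threshold of 0.05 as lower, and none of the 5 passed as higher. Over all genes tested, 6.39% passed, 2.47% as lower and 3.92% as higher.

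The KO libraries still held transcripts of both genes. A floor of 3 counts corresponds to 0.0854 CPM or less in these libraries, and each KO library had at least 187 counts of either gene. In bulk RNA, fewer cells making a cytokine and less RNA per cell cannot be told apart. Without WT replicate 1 the drop was smaller, at -2.41 on the log2 scale for Il17a and -2.34 for Il17f, and both passed (adjusted p = 3.74e-18 and 1.12e-15). Without KO replicate 2 neither gene passed (adjusted p = 0.0712 and 0.0522), and without KO replicate 1 Il17a did not (0.0507).

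**Figure D1:**
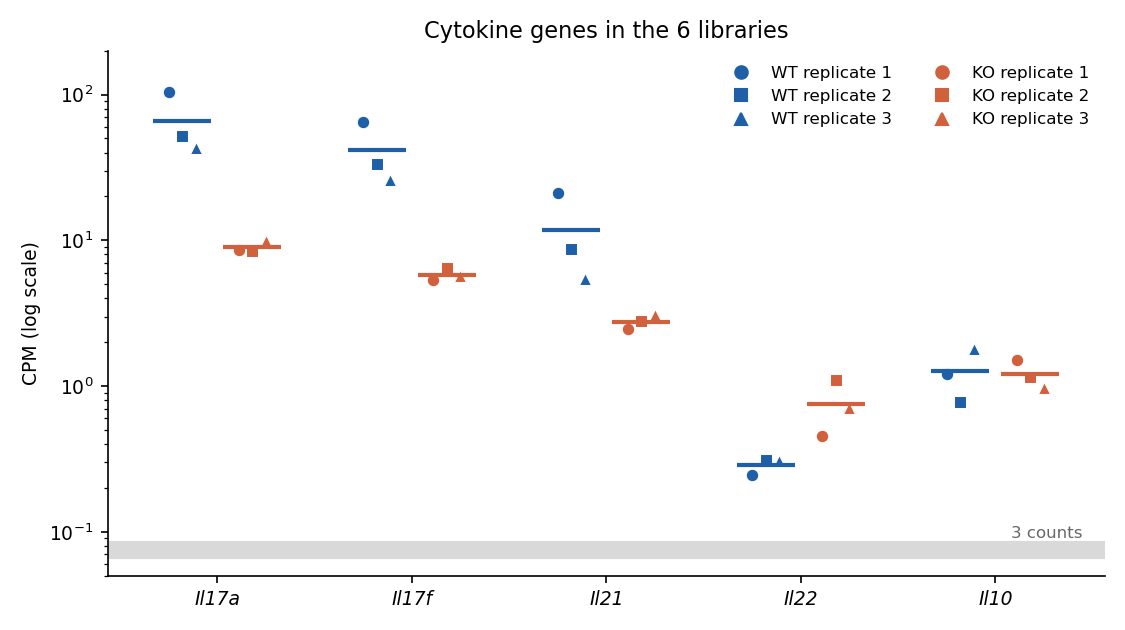
Level of each cytokine gene in the 6 libraries, in CPM on a log axis. Circles, squares and triangles are replicates 1, 2 and 3, blue for WT and orange for KO, horizontal lines are group means, and the grey band is the level of 3 counts over the 6 libraries. Il17a, Il17f and Il21 lie lower in all 3 KO libraries, Il22 lies higher, and the Il10 values overlap.

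Il17a and Il17f moved in near fixed proportion. The ratio of Il17a to Il17f counts within a library, which does not depend on library size, was 1.60, 1.56 and 1.67 in WT and 1.61, 1.31 and 1.73 in KO. The group means were 1.61 ± 0.0563 and 1.55 ± 0.219 (SD, n = 3), and the mean log2 ratio of KO minus that of WT was -0.06 (two-sided exact permutation p = 0.9, where 3 against 3 libraries cannot go below 0.1). The most divergent library was KO replicate 2, whose 95% interval from 1.11 to 1.55 (exact binomial, counting error only) lay just below that of WT replicate 3, from 1.56 to 1.80. The difference of the mean log2 ratios was -0.07 without WT replicate 1 and 0.0541 without KO replicate 2. Both genes were high in WT replicate 1 and low in the KO libraries, with similar mean ratios. With 3 libraries per group the test cannot show that the ratios were equal, and they varied more among the KO libraries.

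Il21, which encodes a cytokine that Th17 cells also use on themselves, was lower in every KO library but did not pass the threshold. Il21 (ENSMUSG00000027718.9) was counted 871, 335 and 246 times in WT and 87, 106 and 113 times in KO, or 21.2, 8.73 and 5.40 CPM against 2.48, 2.78 and 3.07 CPM. The lowest WT value was 1.76 times the highest KO value, a smaller gap than for Il17a or Il17f. The log2 fold change was -2.08 ± 0.53 (interval -3.38 to -0.78, adjusted p = 0.0835). The WT spread was wide, with a coefficient of variation of 70.8% against 10.7% in KO. Without WT replicate 1 the log2 fold change of Il21 was -1.34 and it passed (adjusted p = 6.03e-06), and without WT replicate 3 it was -2.43 and passed as well (0.00787). With DESeq2's Wald test the adjusted p was 0.00774.

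The proportion of Il21 to Il17a was not fixed. Its counts per Il17a count were 0.205, 0.167 and 0.125 in WT and 0.288, 0.329 and 0.310 in KO, so that every KO library lay above every WT library. The means were 0.166 ± 0.0397 and 0.309 ± 0.0206 (SD, n = 3), a difference of 0.93 on the log2 scale (two-sided exact permutation p = 0.1, the smallest that 3 against 3 libraries allow). The ratio to Il17f gave 0.327, 0.261 and 0.210 in WT and 0.465, 0.431 and 0.538 in KO, with the groups again apart (exact permutation p = 0.1). These ratios were examined after the values of the single genes had been seen. Within WT the ratio to Il17a was highest in replicate 1, the library with the most of both transcripts.

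Il22 had values in the opposite direction at very low counts. Il22 (ENSMUSG00000074695.4) was counted 10, 12 and 14 times in WT and 16, 42 and 26 times in KO, or 0.244, 0.313 and 0.307 CPM against 0.455, 1.10 and 0.706 CPM. Every KO value lay above every WT value, and the KO libraries differed among themselves by more than the WT libraries did. The log2 fold change was 1.38 ± 0.45 (interval 0.39 to 2.37, adjusted p = 0.0993), and none of the 11 alternatives that tested it brought it past the threshold. It was 1.28 without WT replicate 1. All 6 counts are even numbers. Low counts in this table are mostly even, as counting both mates of each read pair would give, so the number of fragments may be smaller than the counts. Iltifb, a close copy of Il22 that lies beside it, was listed at 0 in all 6 libraries. No counting of multi-mapping reads is set in the recorded commands, so reads shared by both copies may be missing and the level of Il22 is uncertain.

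Il10, whose product limits inflammation and which Th17 cells make under some conditions, did not differ detectably. Il10 (ENSMUSG00000016529.6) was counted 50, 30 and 82 times in WT and 53, 44 and 36 times in KO, or 1.22, 0.781 and 1.80 CPM against 1.51, 1.15 and 0.977 CPM. The highest and the lowest value both came from WT libraries, so the groups overlapped fully. The log2 fold change was -0.07 ± 0.34 (interval -0.82 to 0.67, adjusted p = 0.931), and without WT replicate 1 it was -0.10. Changes of Il10 within that interval are not excluded by these counts, and the interval is not a limit of detection.

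The groups were apart in 4 of the 5 genes, 3 with KO lower and 1 with KO higher. Over all genes tested, the 3 KO values and the 3 WT values were apart in 26.8%, with KO lower in 12.4% and KO higher in 14.4%. Il17a, Il17f and Il21 varied less among the KO libraries than among the WT libraries. Their coefficients of variation in WT were 49.2%, 50.1% and 70.8%, against a median of 10.0% over all genes tested, and 5.31%, 5.02% and 1.55% of tested genes varied more. In KO they were 8.83%, 9.80% and 10.7%, also above the median of 6.20%, and 38.9%, 36.1% and 33.8% of tested genes varied more. Il22 had the reverse order, with 13.3% in WT and 43.1% in KO, at counts of 10 to 42 a library. Counting error is large at such counts, so these 2 values do not show a difference in spread. The coefficient of Il10, 40.4% in WT and 22.3% in KO, comes with counts of 82 or less.

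Much of the WT spread lay in replicate 1. In that library Il17a was 2.17 times, Il17f 2.19 times and Il21 3.00 times the mean of WT replicates 2 and 3. On a log2(CPM + 0.5) scale these differences were 1.11, 1.12 and 1.52, against a median of 0.00 over the 14681 tested genes, and only 34, 33 and 6 tested genes had larger ones. Il22 (-0.12) and Il10 (-0.06) were not raised in that library. The 6 genes raised more than Il21 were Tgm2, Upp1, Impg2, Il24, Gap43 and Ramp3, named after their values were seen. Il24 encodes a cytokine of the IL-10 family, and its level was 3.31 CPM in WT replicate 1 against 0.886 and 0.615 in WT replicates 2 and 3 and 1.14 to 1.36 in KO.

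Not all genes tied to the Th17 programme followed that library. Il23r, which encodes a chain of the IL-23 receptor, was at 3.73, 2.19 and 1.14 CPM in WT replicates 1, 2 and 3, the order of Il17a and Il17f. Rora, which encodes a nuclear receptor, had the opposite order, with 75.2, 84.3 and 93.4 CPM. Ahr, the aryl hydrocarbon receptor gene needed for Il22 expression, was lowest in replicate 1, at 3.82 CPM against 10.2 and 11.8. Ifng, the signature cytokine of Th1 cells, was also lowest there, at 33.5 CPM against 50.2 and 57.4.

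**Figure D2:**
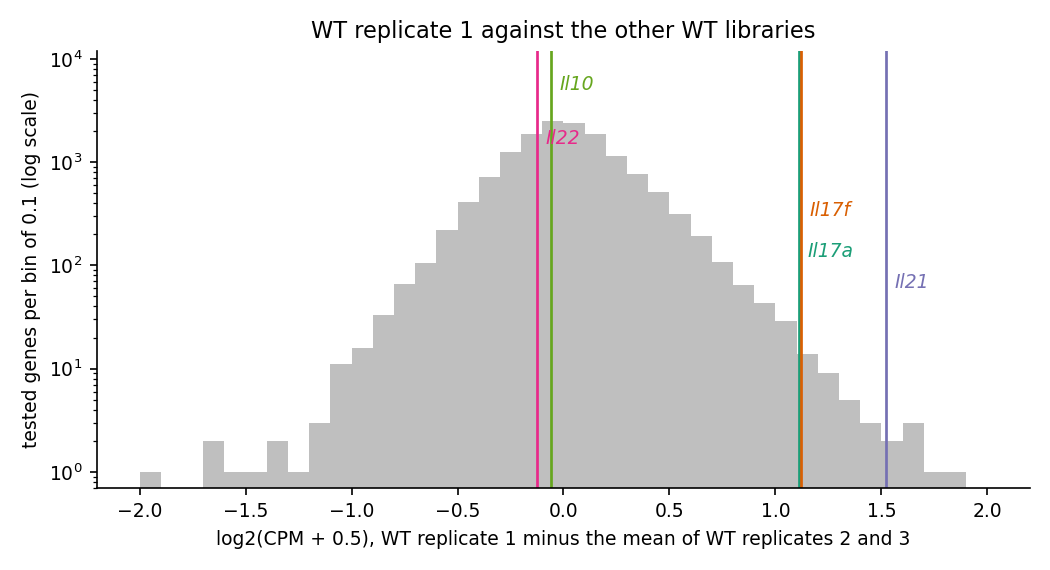
Histogram of all 14681 tested genes by their level in WT replicate 1 minus the mean of WT replicates 2 and 3, on the log2(CPM + 0.5) scale, with the number of genes per bin on a log axis and coloured lines for the 5 cytokine genes. Il17a (1.11), Il17f (1.12) and Il21 (1.52) lie in the far right tail, while Il22 (-0.12) and Il10 (-0.06) lie near the middle.

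The profile of Il17a over the 6 libraries was nearest to that of Il17f. Likeness was measured as the root mean square difference of log2(CPM + 0.5) profiles, each centred on its own mean, over 10965 candidate genes with a mean of at least 1 CPM. It is a description of 6 libraries that share 2 genotypes. Il17f lay at 0.13 from Il17a, and the next nearest were Il21 (0.54), Vax2 (0.75), Pcsk6 (0.78) and Cyp1a1 (0.81), the last a classical target of the aryl hydrocarbon receptor. For Il17f the nearest were Il17a, Il21 (0.50), Vax2 (0.71), Pcsk6 (0.74) and Pdpn (0.76), which encodes the surface glycoprotein podoplanin. This distance depends on the size of the changes as well as on their shape. The step from Il17f to the next gene is therefore not by itself a measure of how closely the neighbouring pair tracked each other.

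The genes nearest to Il21 were others. Timp1 (0.33), Vax2 (0.35), Gap43 (0.38), Slc17a6 (0.38) and Il23r (0.40) came first, and Il17f and Il17a ranked only 16 and 19 for Il21. Timp1, which encodes an inhibitor of matrix metalloproteinases, had 68.6, 28.7 and 22.4 CPM in the WT libraries against 16.0, 15.9 and 18.2 CPM and did not pass (log2 fold change -1.26, adjusted p = 0.219). Il22, with its small centred values, was nearest to Cxxc5 (0.14), Tslp (0.15), Rbfox2 (0.15), Sh3bgrl2 (0.15) and Eng (0.15), and of these only Eng passed (log2 fold change 0.58, adjusted p = 0.0243). For Il10 the nearest were Utf1 (0.11), Ebpl (0.14), Maoa (0.14), 1110059G10Rik (0.15) and Znhit2 (0.15), none of which passed.

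**Figure D3:**
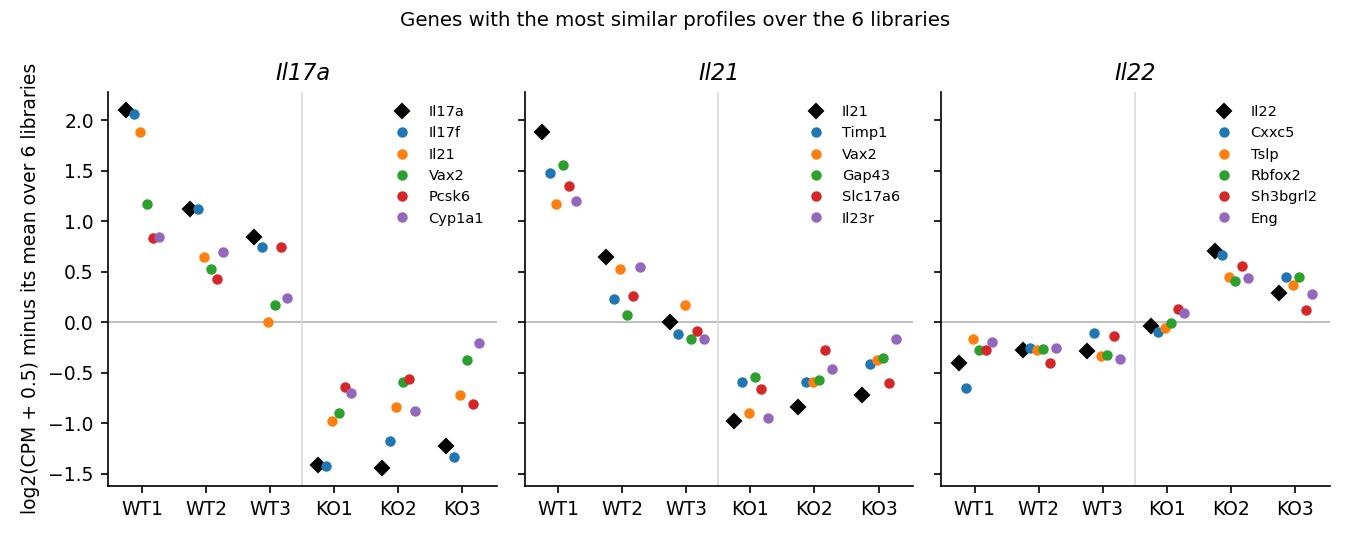
Centred log2(CPM + 0.5) profiles of Il17a, Il21 and Il22 (black diamonds) and the 5 genes nearest to each (coloured points), with the 6 libraries on the horizontal axis and a grey line between genotypes. In the left panel the Il17f points lie almost on those of Il17a, and in the middle panel WT replicate 1 stands above the other libraries for all 6 genes.

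Most tested genes beside the cytokine loci did not pass in the full fit. Among the 3 nearest protein-coding genes on each side in the RefSeq table, 17 that are not themselves among the 5 were tested. Of these 17, 2 passed as higher and 1 as lower, in a fit where 6.39% of all tested genes passed. Without WT replicate 1 there were 5 higher and 3 lower among the 17, in a fit where 19.7% of all tested genes passed. Beyond Il17f, Mcm3, a subunit gene of the replicative helicase, was higher (log2 fold change 0.39 ± 0.05, adjusted p = 5.11e-04), with means of 178 ± 3.55 CPM in WT and 233 ± 4.25 in KO, and Paqr8 did not pass (-0.15 ± 0.23). On the other side of Il17a, Pkhd1, Tfap2b and Tfap2d were listed at 0 in all 6 libraries. The drop at this locus was thus seen in the cytokine pair and not in either tested neighbour.

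Il21 lies beside Il2, which encodes the growth factor of activated T cells and belongs to the same cytokine family. Il2 had 1262, 1684 and 1817 CPM in the WT libraries against 2266, 2077 and 2171 CPM, above WT in every KO library without passing (log2 fold change 0.45 ± 0.13, adjusted p = 0.0913). It was lowest in WT replicate 1, where Il21 was highest. Fgf2, a fibroblast growth factor gene on the far side of Il21, fell from 7.42 ± 0.706 to 3.32 ± 0.260 CPM (-1.16 ± 0.15, adjusted p = 9.80e-04), and the closer genes Cetn4 and Bbs12 did not pass. Near Il22, Ifng rose from 47.0 ± 12.3 to 133 ± 15.5 CPM (1.50 ± 0.20, adjusted p = 0.00766), and Mdm1, Rap1b, Nup107 and Dyrk2 did not pass. None of the 4 tested neighbours of Il10 passed, namely Il24, Mapkapk2, Dyrk3 and Eif2d.

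**Figure D4:**
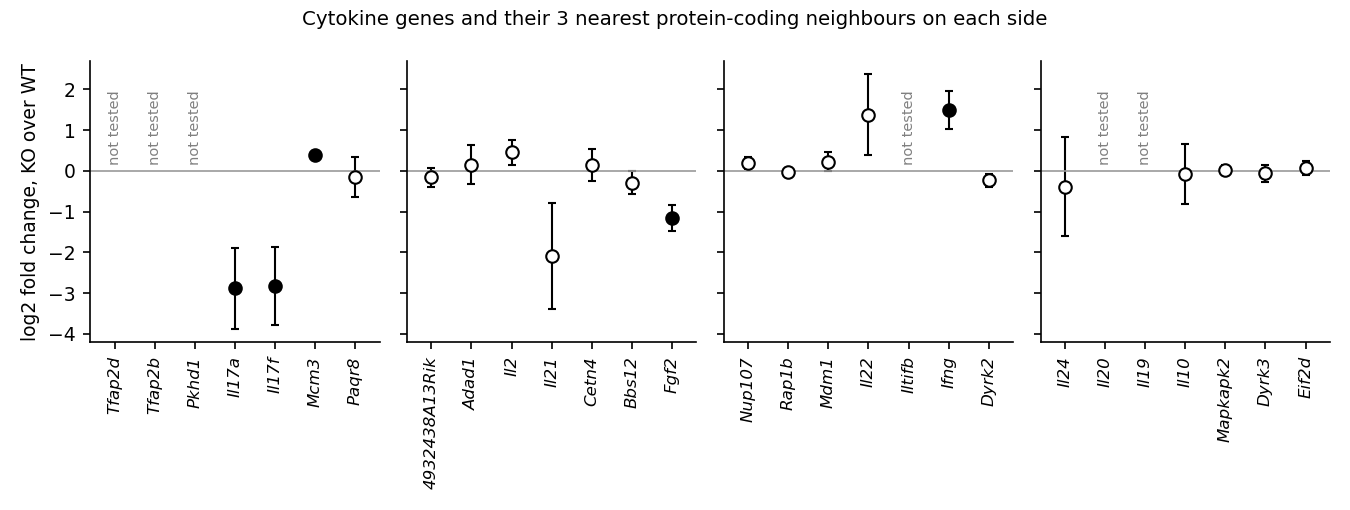
Log2 fold change, KO over WT, of the cytokine genes and their nearest protein-coding genes in RefSeq order, with 95% intervals, filled where the adjusted p was under 0.05. Il17a and Il17f lie near -3 beside Mcm3 at 0.39, Il21 lies between Il2 and Cetn4, and Ifng stands at 1.50 in the Il22 panel.

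Few relatives of these cytokines were expressed. Of the 6 IL-17 family ligand genes, Il17a and Il17f alone passed the filter on low counts, and Il17b was listed at 0 throughout, where a floor of 3 counts per library applies. Of the 5 IL-17 receptor chain genes, Il17ra and Il17rd were tested and neither passed, with Il17ra at 124 ± 2.62 and 129.9 ± 8.80 CPM; at an unadjusted p under 0.05 and in DESeq2 the count was also 0. Of the 5 IL-10 family ligand genes 3 were tested (Il10, Il22 and Il24) and none passed in edgeR or DESeq2, with 1 at an unadjusted p under 0.05. Of 6 common gamma chain cytokine genes 4 were tested and none passed in edgeR, against 2 in DESeq2 and 2 at an unadjusted p under 0.05, and without WT replicate 1 there was 1 higher (Il2) and 1 lower (Il21). The receptor genes of IL-21 and IL-10 were expressed as well, and none of the 4 tested genes of that list passed in edgeR, against 1 in DESeq2 and 2 at an unadjusted p under 0.05. Il21r was at 307 ± 23.0 and 280 ± 4.80 CPM, and Il2rg, the common gamma chain, at 444 ± 25.7 and 455 ± 5.87 CPM. Il10ra had a log2 fold change of 0.41 ± 0.12 (adjusted p = 0.0687), and passed without WT replicate 1 (0.0149). Il22ra1 and Il22ra2 were listed at 0. Over all tested genes 6.39% passed in edgeR, and DESeq2 called 1325 genes. The share of all genes at an unadjusted p under 0.05 is not given, so those counts cannot be read against it.

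Of 16 genes known to activate Il17a and Il17f, 4 were lower and none higher. Over all tested genes in the full fit, 2.47% were lower and 3.92% higher. Among the 4 lower activators were Rora (log2 fold change -0.42 ± 0.07, adjusted p = 0.00712), Irf4 (-0.31 ± 0.04) and Batf (-0.30 ± 0.06). These drops were much smaller than those of the cytokines, while Stat3 (0.06 ± 0.05) did not pass. The median log2 fold change of the 16 genes was -0.19, against -0.01 over all genes tested. Without WT replicate 1, where 9.12% of all tested genes were lower and 10.6% higher, the list had 6 lower and 2 higher genes, with Ahr (-1.01) and Fosl2 (-0.14) joining the lower ones and Junb (0.22) and Nfkbiz (0.33) the higher ones. Of 15 genes known to restrain them, 2 were higher, the Th1 factor genes Tbx21 (1.05 ± 0.12) and Eomes (0.90 ± 0.17), and 3 were lower, Foxp3 (-0.90 ± 0.16), Stat5a (-0.21 ± 0.04) and Stat5b (-0.18 ± 0.05). This second list had 5 lower and 2 higher genes without WT replicate 1, and its median in the full fit was -0.15.

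Among 14 genes that control Il10, Il21 and Il22, 3 were lower and none higher, with a median of -0.11. The shares over all tested genes were 2.47% lower and 3.92% higher in the full fit. Without WT replicate 1 those shares were 9.12% and 10.6%. The 3 lower genes were Irf4, Batf and Notch2 (-0.21 ± 0.05, adjusted p = 0.0430), and without WT replicate 1 there were 4 lower and 1 higher. Maf, which encodes a factor that drives both Il10 and Il21, was scarce, at 0.882 ± 0.348 and 0.460 ± 0.246 CPM, and did not pass (-0.94 ± 0.49, adjusted p = 0.302). Among 8 genes for the turnover of cytokine messages, 1 was lower, Zfp36l2, which encodes a protein that destabilises AU-rich messages (-0.46 ± 0.06, adjusted p = 6.44e-04). The turnover list had 2 lower and 2 higher genes without WT replicate 1. Of 12 genes that carry the signals inducing Th17 cytokines, 2 were lower, Il1r1 (-0.87 ± 0.21) and Smad3 (-0.46 ± 0.11), and without WT replicate 1 there were 6 lower and 2 higher, again beside 9.12% and 10.6% over all genes. Of 9 other Th17 marker genes tested, 4 were lower (Il1r1, Rora and Ccl20 among them) and 2 higher, Tmem176a (1.59 ± 0.29) and Tmem176b (1.15 ± 0.21), against 4 lower and 3 higher without WT replicate 1.

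Several other helper T cell cytokine genes were higher. Of 11 such genes tested, 7 were higher and none lower in the libraries labelled KO, with a median log2 fold change of 0.71. Over all tested genes in that fit, 3.92% were higher and 2.47% lower. Among the 7 that passed, the 4 largest changes were those of Ifng (1.50 ± 0.20), Il3 (1.45 ± 0.11), Il13 (1.35 ± 0.15) and Lta (1.02 ± 0.05), and Csf2, Tnf and Ltb passed as well. Il3 went from 61.4, 48.9 and 48.2 CPM in WT to 162, 130 and 140 CPM in KO. The levels of Csf2 in the WT libraries, 74.3, 68.6 and 67.5 CPM, were close together, in contrast to Il17a in the same libraries. Without WT replicate 1, 10 of 12 tested genes of this list were higher and none lower, in a fit where 10.6% of all tested genes were higher. In the full fit Il2, Il5 (1.13), Il9 (0.18) and Tgfb1 (0.23) did not pass.

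Cells other than CD4 T cells can also make IL-17, and the markers of gamma delta T cells moved in both directions. Their summed level was 51.0 to 63.0 CPM in WT and 95.9 to 101 CPM in KO. Of the 6 genes in that sum 4 were higher, all of them receptor constant genes (Trdc and 3 of the Tcrg-C genes). Over all tested genes in the full fit, used for all these markers, 3.92% were higher and 2.47% lower. Sox13 (-0.38 ± 0.47) and Blk (-1.85 ± 0.73) had negative log2 fold changes and did not pass. For Blk, at 18 counts or fewer per library, every KO value lay below every WT value. The 6 Th17 markers, which include cytokine genes described here, summed to 96.5 to 214 CPM in WT and 35.8 to 37.9 in KO. The 2 CD8 coreceptor genes summed to 14.1 to 16.0 CPM in WT and 12.4 to 16.6 in KO. The NK and innate lymphoid genes Ncr1, Klrb1c and Klrb1b were listed at 0 in all 6 libraries, and the 6 genes of that list summed to 4.97 to 6.77 CPM in WT and 7.98 to 10.03 in KO, with Fcer1g higher (2.46 ± 0.28). B cell markers summed to 50.4 to 65.8 and 88.2 to 93.2 CPM, mainly through Ighm. Myeloid markers summed to 1.54 to 2.37 and 2.53 to 2.72 CPM. The summed regulatory T cell markers, mostly Il2ra and Ctla4, overlapped at 1299 to 1614 and 1301 to 1337 CPM. Of its 4 genes Foxp3 was lower (-0.90 ± 0.16, adjusted p = 0.00841) and Ikzf2 higher (0.61 ± 0.13, adjusted p = 0.0218). The part of these cells in the cytokine levels was not tested.

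**Figure D5:**
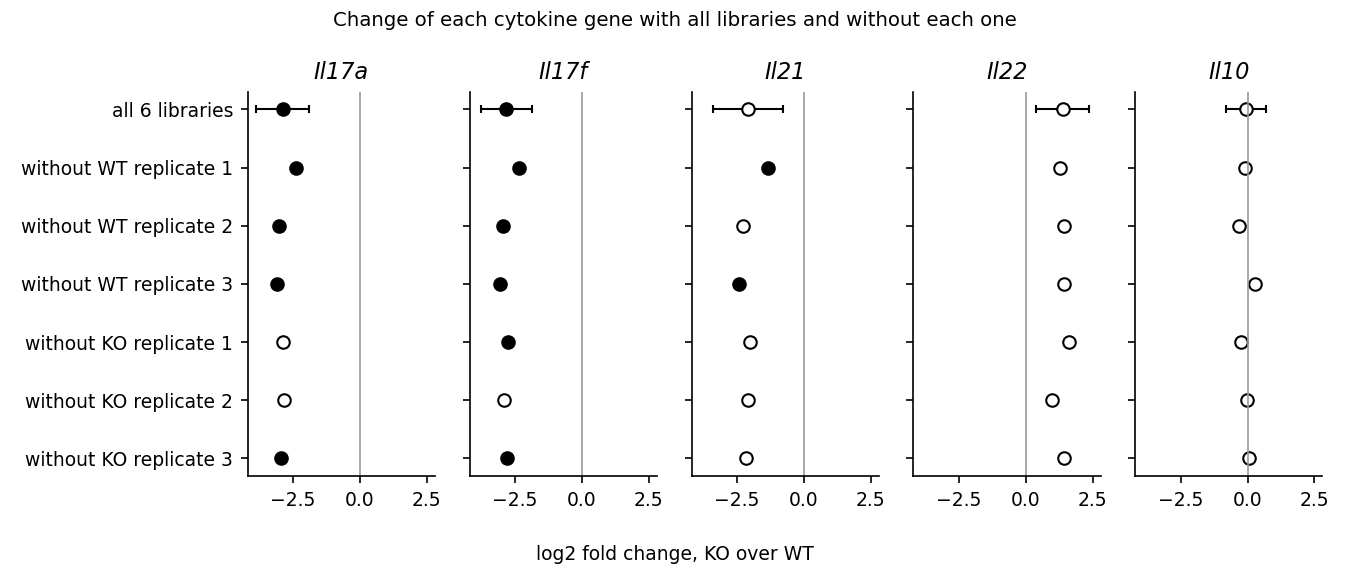
Log2 fold change, KO over WT, of each cytokine gene with all 6 libraries (top row, with its 95% interval) and without each library in turn, filled where the adjusted p was under 0.05. Il17a stays between -3.12 and -2.41 and Il17f between -3.08 and -2.34, Il21 lies nearest to 0 without WT replicate 1 (-1.34), and Il10 changes sign.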

How the data were processed

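RNA-seq counts of 3 WT and 3 KO libraries were analysed. Groups and replicate numbers come from the sample titles, which call the libraries biological replicates without naming separate animals, so p-values measure only the spread between these libraries. The authors deposited raw counts per gene, made with featureCounts 2.0.1 and GENCODE vM33, per the file headers. No strand, multi-mapping or paired-end option is set in the commands of 5 libraries, and the command of KO replicate 1 lacks its option names. Reads of overlapping or antisense genes cannot be told apart, and close copies lose shared reads. For the aligner version and the build, nothing is given in the sources used here. In the record of units, the deposited column of WT replicate 2 is entered as other, and it holds raw counts like the rest. Even values made up 65.6% to 67.7% of the counts from 1 to 20, so counts may exceed fragments. The intervals of count ratios and the floors cover counting error only. Those of the log2 fold changes come from the SE of the fit and include the spread between libraries. No 2 libraries matched within sampling noise (lowest chi-square over its degrees of freedom 4.19).

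Symbols were matched by gene ID for 51948 of 56941 IDs (91.2%). edgeR 4.0.16 (R 4.3.3) was run with filterByExpr at its defaults, TMM factors (0.984 to 1.016), a robust quasi-likelihood fit over all 6 libraries and Benjamini-Hochberg adjustment over 14681 genes. Each SE is the size of the log2 fold change divided by the root of its F value. Alternatives were DESeq2 1.42.0, limma 3.58.1 with quality weights, other size factors and filters, a replicate block, and leaving out each library. Upstream sequences and neighbours come from RefSeq (GRCm38.p6), where 4 of the 5 genes had a listed upstream window. That of Il22, with 1 match to TATAAA at -170 to -165, is not shown. The named genes are the 5 members, Chaf1b, Chaf1a and Ifng, up to 4 called genes per fixed list (or the 2 most abundant where none was called), tested neighbours and the 5 nearest profiles. Some genes that this rule picks are not reported here; other genes in the text were picked with their values known. The members and lists were chosen with earlier results of these data known.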

Additional observations from a re-analysis of the deposited data

How the results depend on the processing

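Il17a, Il17f and Il21 kept a negative and Il22 a positive log2 fold change under every alternative that tested them (12 for each of the first 3 genes and 11 for Il22, which had too few counts for the stricter filter). Leaving out each library gave -3.12 to -2.41 for Il17a, -3.08 to -2.34 for Il17f, -2.43 to -1.34 for Il21, 1.00 to 1.64 for Il22 and -0.32 to 0.27 for Il10. Il17f also missed the threshold when genes of low counts were kept (-2.83, adjusted p = 0.0578). Il21 passed in DESeq2 (-2.08) and with quality weights (-1.62, adjusted p = 0.0227), where Il10 turned positive (0.28, adjusted p = 0.597). Over all alternatives the adjusted p ran from 3.74e-18 to 0.0712 for Il17a, 1.12e-15 to 0.0578 for Il17f, 6.03e-06 to 0.257 for Il21, 0.0646 to 0.385 for Il22 and 0.597 to 0.983 for Il10. The log2 Il17a to Il17f ratio difference ranged from -0.148 to 0.0541 without each library, and turned positive (0.0541) without KO replicate 2. Il10 was also positive without WT replicate 3 (0.27) or KO replicate 3 (0.06).

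The number of genes past the threshold was 938 (576 higher, 362 lower). It was 1568 with no filter (746 lower), 2934 with quality weights (1558 higher, 1376 lower), and 295 to 2961 without each library (225 to 1589 higher, 70 to 1372 lower). DESeq2 called 1325 (756 higher, 569 lower). The replicate block called 671 (231 lower). The labels do not say that the shared replicate numbers pair the samples. Same-numbered libraries deviated with correlations of -0.04, -0.04 and 0.03 across genes. With 3 libraries per genotype such values cannot decide whether the samples are paired. With that block Il17a (-2.78) and Il17f (-2.72) passed and Il21 (-1.87, adjusted p = 0.0509) did not. The cause of these differences between settings was not tested. Il22 and Il10 rest on 10 to 82 counts a library, few enough that counting error adds to the spread between libraries.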
